A study of Rattus norvegicus with 12 samples.

Results

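The sarcomeric myosin heavy chain family was described across the pituitaries of control and dioxin-exposed rat fetuses. Its members were taken by gene name: every array probe that was not a control spot and was named Myh1, Myh2, Myh3, Myh4, Myh6, Myh7, Myh7b, Myh8 or Myh13, each probe read alone. This gave 12 probes for 9 genes among 30367 probes, and 9 of the 12 were measured, that is, well above background on at least 3 arrays. The study placed 12 one-colour oligonucleotide arrays in 4 groups of 3, each group being pituitaries of Wistar rat fetuses at gestational day 18: control males, TCDD-exposed males, control females and TCDD-exposed females. TCDD is 2,3,7,8-tetrachlorodibenzo-p-dioxin, a ligand of the aryl hydrocarbon receptor, and the exposure was through the mother. The sources used here do not give its dose or day, the litters, or whether an array held 1 gland or a pool, so p-values measure the spread between these samples, which may share a litter or a mother. The family was selected on gene names, but with earlier results of the exposure comparison known: the low p-values of Myh6 and Myh7 between exposed and control samples drew attention to it. For this reason the exposure values of the members are a description with no test.

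Myosin heavy chains are the motor proteins of the thick filament in striated muscle. A fibre's contraction speed follows in large part from which heavy chain it makes. Myh3 and Myh8 encode the embryonic and perinatal chains, Myh1, Myh2 and Myh4 the fast chains of adult limb muscle, Myh6 and Myh7 the alpha and beta chains of the heart (Myh7 also that of slow muscle), Myh13 a chain of the muscles that move the eye, and Myh7b a slow-tonic chain. None is known for a role in pituitary hormone cells. Thyroid hormone is known to raise Myh6 and lower Myh7 in the rodent heart.

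Most of the fast and developmental genes lie side by side on chromosome 10 in the RefSeq table of GRCr8, in the order Myh3, Myh2, Myh1, Myh4, Myh8 and Myh13, while Myh6 and Myh7 are neighbours on chromosome 15 and Myh7b lies on chromosome 3. Because the coding sequences of the family are alike, the probes that the results turn on are printed here 5′ to 3′ with the rn4 position given in the files. Capitals in the first pair mark the bases that were identical where those probes overlap without gaps.

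Myh6 probe A_42_P756334 at chr15:33044576-33044983, minus strand: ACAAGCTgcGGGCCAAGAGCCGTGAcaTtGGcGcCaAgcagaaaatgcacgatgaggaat
Myh13 probe A_64_P120327 at chr10:54086927-54086986, plus strand: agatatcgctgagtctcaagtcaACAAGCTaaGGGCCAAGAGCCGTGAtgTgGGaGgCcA
Myh13 probe A_64_P137369 at chr10:54087471-54087530, plus strand: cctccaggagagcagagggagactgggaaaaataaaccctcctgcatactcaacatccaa
Myh7 probe A_64_P014607 at chr15:33073880-33073939, minus strand: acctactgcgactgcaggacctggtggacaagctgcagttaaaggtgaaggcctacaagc

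The Myh6 probe has 60 bases but spans 408 bases of the genome, so it crosses a gap in the alignment. It shared 29 of 37 overlapping bases (78.4%) with Myh13 probe A_64_P120327, including a run of 16 identical bases. Among the 30366 other probes of the array, each of these was the closest to the other by percent identity over an ungapped overlap of at least 30 bases. The Myh7 probe matched neither of them as closely, and its nearest relative in the family was a Myh2 probe with 29 of 44 bases (65.9%). The other Myh13 probe starts 544 bases further along and was designed against another transcript model. It showed no such match to Myh6.

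Levels are given as log2 of the background-corrected intensity minus the 75th percentile of the array, and a level is never set against that of another probe. Of the 42877 non-control spots of an array, 75.1% to 78.4% were well above background and none was saturated. Markers of the anterior pituitary were measured for 15 of 16 listed genes (Hesx1 was not), with a mean level between -1.43 and 0.16. Markers of sensory ganglion neurons (24 of 25 measured) separated the arrays: their mean lay between -0.38 and 1.12 on male TCDD 1 and 2, on female TCDD 1 and 3 and on control 2 of each sex, and between -4.76 and -4.06 on the other 6. This signal was therefore on 4 exposed and 2 control arrays, and it was highest on male TCDD 1, where the anterior pituitary mean was lowest. The slides were also uneven: slide 1 held the male controls and male TCDD 1, slide 2 held male TCDD 2 and 3 with female control 1 and 2, and slide 3 held female control 3 and the exposed females. The number of arrays limits the precision.

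The heart chains Myh6 and Myh7 were higher on every exposed array than on every control array, and Myh13 probe A_64_P120327 was higher on every exposed array than on every control array of its sex. In the other 6 measured probes, among them both of Myh3 and the second of Myh13, exposed and control arrays overlapped in at least 1 sex. No member passed the threshold of an adjusted p below 0.05 in limma over both sexes (0 of 9, against 0.0178% of all 22430 measured probes), and nothing is read from that count.

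Myh6, the alpha chain of the heart, stood at -1.79, -1.77 and -1.85 in control males and at -0.81, 0.07 and 0.29 in exposed males. In females it stood at -0.91, -1.69 and -1.98 in controls and at -0.33, 0.01 and -0.35 after exposure. The groups did not overlap in either sex or over all 12 arrays, and the closest pair was female control 1 at -0.91 and male TCDD 1 at -0.81. The background-corrected intensity of this probe ran from 235.5 to 516 units in controls and from 643 to 1248 units in exposed samples, and it was well above background on all 12 arrays. The exposed mean exceeded the control mean by 1.48 (standard error 0.21), a ratio of 2.78, with 1.65 (standard error 0.30) in males and 1.30 (standard error 0.30) in females.

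Myh7, the beta chain, stood at -2.15, -2.26 and -2.23 in control males and at -1.25, -0.44 and -0.27 in exposed males. In females the control levels were -1.54, -2.12 and -2.39 and the exposed levels were -1.04, -0.55 and -0.90. Again all 6 exposed arrays lay above all 6 controls, with male TCDD 1 the lowest exposed array and female control 1 the highest control. The difference was 1.38 (standard error 0.19), a ratio of 2.59, with 1.56 in males and 1.19 in females. Over all measured probes, 0.201% had every exposed array above every control array and 0.205% had every exposed array below.

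Myh13 probe A_64_P120327 stood at -5.02, -4.16 and -4.33 in control males and at -3.24, -2.33 and -1.99 in exposed males. Female levels were -3.17, -4.09 and -4.25 in controls and -2.66, -2.42 and -2.79 after exposure. Within each sex the groups did not overlap, but male TCDD 1 lay just below female control 1. The difference was 1.60 (standard error 0.26), a ratio of 3.03, with 1.98 in males and 1.21 in females. With normexp background correction it was 0.96.

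Myh6, Myh7 and this probe of Myh13 were thus 3 of 9 measured member probes with every exposed array above every control of the same sex in both sexes, against 0.312% of all measured probes. The count was also 3 without the 6 arrays with ganglion signal, where 9.09% of all probes met it and where 2 members (Myh13 probe A_64_P137369 and Myh8) had every exposed array below every control of the same sex, beside 7.78% of all probes. It was 3 without male TCDD 1 or without female control 1. Leaving arrays out cannot lower such a count, so these counts do not test it. Without the ganglion arrays the differences over both sexes were 1.78 for Myh6, 1.67 for Myh7 and 1.98 for the Myh13 probe, with 1 exposed array left in each sex (male TCDD 3 and female TCDD 2). With slide as a block they were 1.37, 1.27 and 1.45, resting on the same single arrays as the values within slides that follow. Within slide 1, where male TCDD 1 was the single exposed array, Myh6 differed by 0.99, Myh7 by 0.97 and the Myh13 probe by 1.27. Within slide 3, where female control 3 was the single control, they differed by 1.75, 1.56 and 1.63.

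**Figure D1:**
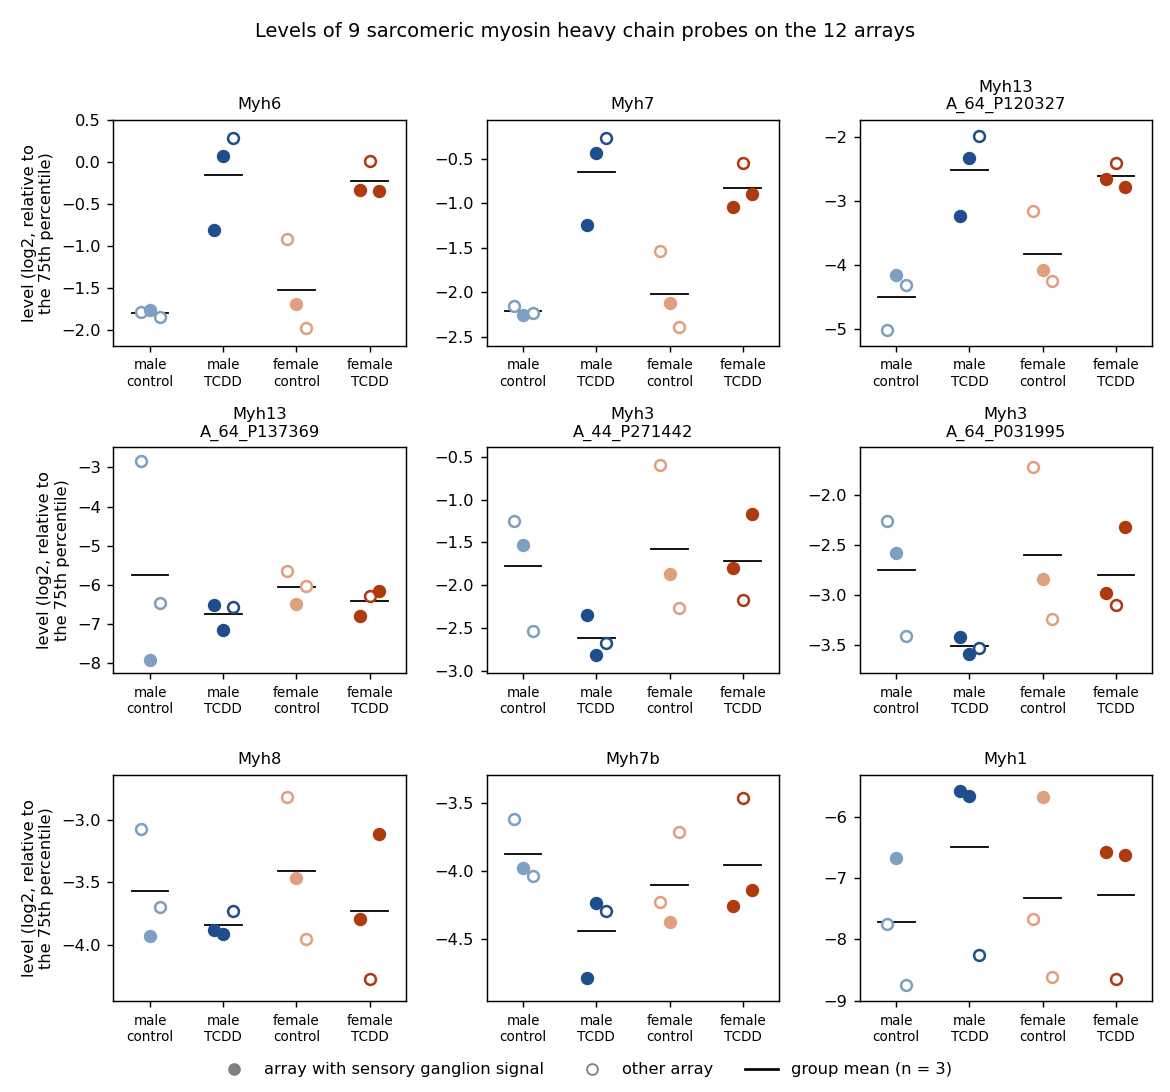
Levels of the 9 measured probes (vertical axis, log2 relative to the 75th percentile of the array) in the 4 groups, with 1 point per array, a line at the group mean, and filled points for the 6 arrays with sensory ganglion signal. Myh6 and Myh7 show all exposed arrays above all controls. Myh1, well above background on only 3 arrays, is split by the filled and open points instead.

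The other Myh13 probe, A_64_P137369, did not follow its partner. It stood at -2.84, -7.90 and -6.46 in control males and at -6.51, -7.14 and -6.57 in exposed males. In females it stood at -5.64, -6.48 and -6.02 in controls and at -6.80, -6.27 and -6.16 after exposure. It was well above background on 7 of 12 arrays, and male control 1 stood far above the rest, with an intensity of 130.7 units against 3.93 to 19.5 on the others. The groups overlapped in both sexes, and the difference of -0.68 (standard error 0.69) became 0.04 without male control 1. The negative sign of this probe rests on that 1 array, and whether the first Myh13 probe measured Myh13, Myh6 or both was not tested.

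**Figure D2:**
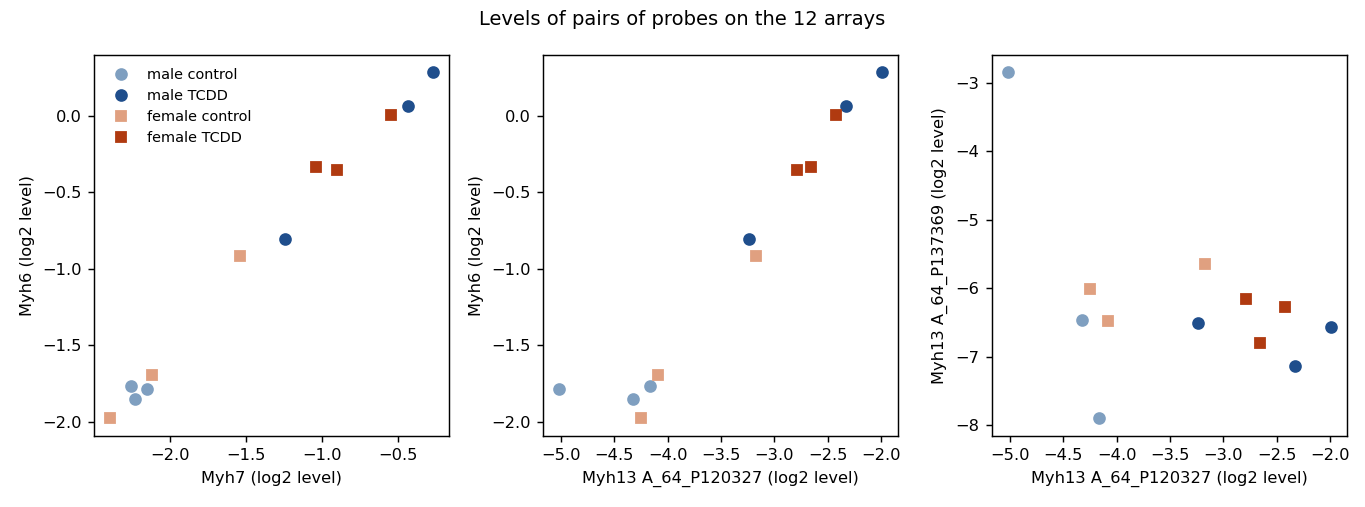
Log2 levels of 3 pairs of probes on the 12 arrays (circles for males, squares for females, dark colours for exposed). Myh6 lies along a line with Myh7 and with Myh13 probe A_64_P120327, and the 2 probes named Myh13 do not lie along one.

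Within the 6 exposed arrays these higher probes ranked the arrays in nearly the same order. Myh6 and Myh13 probe A_64_P120327 had a Pearson correlation of 0.99 there (exact permutation p = 0.00139, the smallest that 6 arrays allow; adjusted p = 0.0333 over 72 correlations) and a Spearman correlation of 1.0 (exact p = 0.00278, adjusted p = 0.0667), and 0.97 without the 2 arrays farthest from the median. Myh6 and Myh7 had a Pearson correlation of 0.97 (exact p = 0.00278, adjusted p = 0.05) and a Spearman correlation of 0.94 (exact p = 0.0167, adjusted p = 0.20), and 0.97 without the 2 farthest arrays. In the 6 controls Myh6 and Myh7 had a Pearson correlation of 0.99 (exact p = 0.00694, adjusted p = 0.0714) and a Spearman correlation of 0.83 (exact p = 0.0583, adjusted p = 0.60), but 0.63 without the 2 farthest arrays, so this relation rests on female control 1 and 3. In controls Myh6 and the Myh13 probe had a Pearson correlation of 0.80 (exact p = 0.10, adjusted p = 0.45) and a Spearman correlation of 0.77 (exact p = 0.103, adjusted p = 0.643), and 0.73 without the 2 farthest arrays. A slide holds 4 arrays, too few for a correlation within it. All probes of an array share its RNA and its scaling. The exact tests, here and for Myh3, treat the 6 arrays as exchangeable and take no account of sex, slide or any pairing of same-numbered controls.

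The embryonic chain Myh3 was measured by a pair of probes, at chr10:53800570-53800629 and chr10:53800042-53800098. Probe A_44_P271442 stood at -1.25, -1.54 and -2.53 in control males and at -2.35, -2.82 and -2.68 in exposed males. The females stood at -0.60, -1.86 and -2.27 in controls and at -1.80, -2.17 and -1.17 after exposure. The groups overlapped in both sexes, with female control 1 the highest of all and male TCDD 2 the lowest. The difference was -0.49 (standard error 0.32), with -0.84 in males and -0.14 in females. The female value became 0.35 without female control 1, 0.09 without female TCDD 2, and 0.55 within slide 3. Over both sexes it was -0.01 with slide as a block and -0.76 without the arrays with ganglion signal.

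The second Myh3 probe, A_64_P031995, gave the same order of arrays in controls and in exposed samples, with a Pearson correlation of 0.999 in controls and 0.98 in exposed samples (exact permutation p = 0.00139 and adjusted p = 0.0333 for each) and a Spearman correlation of 1.0 in both (exact p = 0.00278, adjusted p = 0.0667). Without the 2 farthest arrays the Pearson correlations were 0.998 and 0.95. Its levels ran from -3.41 to -1.72 in controls and from -3.59 to -2.32 in exposed samples. Its difference was -0.48 (standard error 0.28), with -0.76 in males and -0.20 in females. In males every exposed array lay just below every control, as for 5.88% of all measured probes, while the first probe overlapped there. Unlike those of Myh13, the 2 probes of this gene gave the same picture.

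The perinatal chain Myh8 (chr10:54002239-54002298) stood at -3.07, -3.93 and -3.70 in control males and at -3.88, -3.92 and -3.73 in exposed males. In females it stood at -2.81, -3.47 and -3.96 in controls and at -3.80, -4.28 and -3.11 after exposure. The groups overlapped in both sexes, and the difference was -0.30 (standard error 0.25), with -0.28 in males and -0.32 in females. Within slide 3 the female value was 0.23, and over both sexes the value was -0.04 with slide as a block and -0.62 without the ganglion arrays. The Myh8 probe shared 30 of 44 overlapping bases (68.2%) with Myh13 probe A_64_P120327.

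The slow-tonic chain Myh7b (chr3:146138435-146138494) stood at -3.62, -3.97 and -4.04 in control males and at -4.78, -4.24 and -4.29 in exposed males. Female levels were -4.22, -4.37 and -3.71 in controls and -4.26, -3.46 and -4.14 after exposure. All exposed males lay below all control males, as 5.88% of all measured probes did, while the female groups overlapped. The difference was -0.56 (standard error 0.26) in males, 0.15 in females and -0.21 (standard error 0.18) over both, and the last became 0.02 without the arrays with ganglion signal and -0.57 with slide as a block.

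The fast chain Myh1 (chr10:53917888-53917947) was near the limit of detection, well above background on male TCDD 1, male TCDD 2 and female control 2. It stood at -7.74, -6.67 and -8.75 in control males and at -5.57, -5.67 and -8.25 in exposed males. The females stood at -7.67, -5.68 and -8.62 in controls and at -6.57, -8.65 and -6.62 after exposure. Its levels ran from -6.67 to -5.57 on the 6 arrays with ganglion signal and from -8.75 to -7.67 on the other 6, without overlap. None of those other 6 arrays had it well above background, and the share of all probes split in this way is not given here. The difference over both sexes was 0.63 (standard error 0.70), and it was 1.74 with slide as a block and -0.26 without the ganglion arrays, which leaves 1 exposed male and 1 exposed female. Since none of the control males had it well above background, its level there is uncertain and no fold is given for males. Of the exposed males 2 of 3 had it well above background, and male TCDD 3 lay below male control 1 and 2.

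Both Myh2 probes and the Myh4 probe, for the other fast chains of limb muscle, were not well above background on any of the 12 arrays. Their intensities lay between 2.19 and 9.72 units for Myh2 and between 2.26 and 7.34 units for Myh4, and no difference is given for them.

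**Figure D3:**
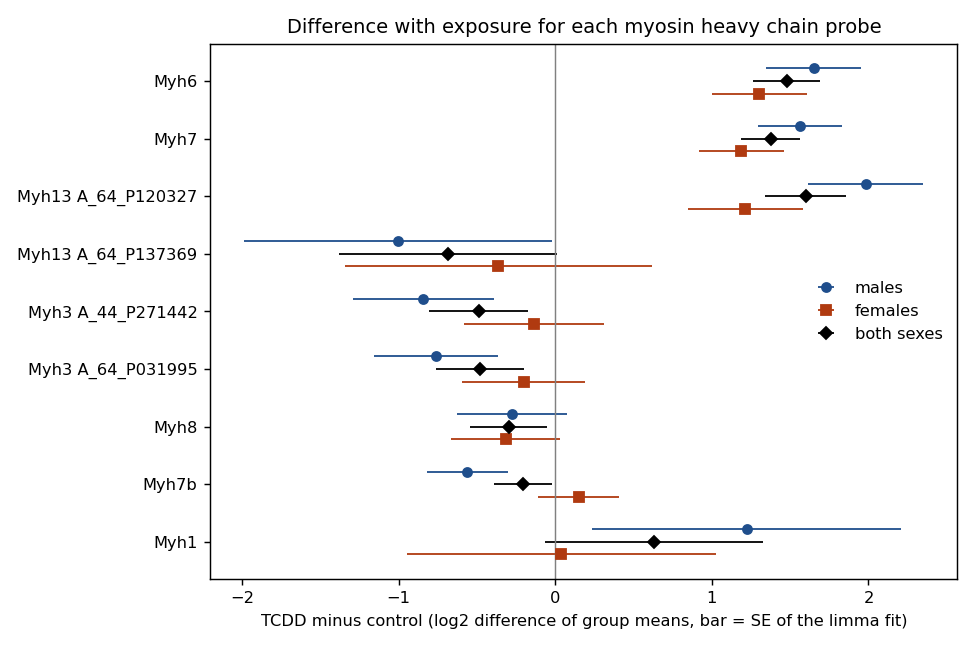
TCDD minus control (horizontal axis, log2 difference of group means with the standard error of the limma fit) for the 9 measured probes, drawn for each sex and for the mean of the sexes. Myh6, Myh7 and Myh13 probe A_64_P120327 lie between 1.19 and 1.98, and the other probes lie nearer 0 or have wide errors.

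Over the 9 measured member probes the median difference over both sexes was -0.21, beside -0.02 over all measured probes, with 4 above 0 and 5 below. In males alone 0 of 9 passed in limma (0.00892% of all probes), and in females alone 0 of 9 (0.00892%).

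The comparison of control males with control females, which the choice of members did not use, gave no member past the threshold in limma (0 of 9, against 0.00892% of all probes; 0 of 9 at an unadjusted p below 0.05, against 5.52% of all). The largest difference was that of Myh13 probe A_64_P120327, at -0.67 on the log2 scale for males minus females (standard error 0.37, adjusted p = 1.0 by limma). It ran from -0.96 to -0.34 over the alternatives. Myh6 differed by -0.27 (standard error 0.30) and Myh7 by -0.20 (standard error 0.27), each within its error. Both changed sign without female control 1, to 0.03 and 0.04. With the replicate number as a block, 1 probe of all was called in place of 2, and again none of the members.

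The difference of the exposure effect between males and females was also tested, and no member passed in limma (0 of 9, against 0% of all probes). At an unadjusted p below 0.05 there were 1027 probes of all (4.58%) and 0 members. The male effect minus the female effect was 0.35 for Myh6 (standard error 0.43, adjusted p = 0.902 by limma), 0.37 for Myh7 (standard error 0.38, adjusted p = 0.892) and 0.77 for Myh13 probe A_64_P120327 (standard error 0.52, adjusted p = 0.882). With slide as a block these became -0.76, -0.60 and -0.36. Those blocked values rest on 1 exposed male array (male TCDD 1, the one with the most ganglion signal) and 1 control female array (female control 3), since the slides hold no other contrast within a sex. Myh7b had the smallest unadjusted p of the members, with a male effect minus female effect of -0.71 (standard error 0.37, adjusted p = 0.882 by limma).

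The genes most like each member were taken by Pearson correlation over the 12 arrays, as a description, since exposure itself enters these values. Myh6 was most like Myh7 (0.995), Myh13 probe A_64_P120327 (0.97), Ihh (0.96), Prdm1 (0.93) and Cyp1a1 (0.93). Ihh encodes the signal Indian hedgehog, Prdm1 a transcriptional repressor, and Cyp1a1 the cytochrome P450 that dioxin induces. After each group's mean was taken out, the correlation of Myh6 was 0.98 with Myh7 and 0.88 with Myh13 probe A_64_P120327. It was 0.79 with Ihh, 0.86 with Prdm1 and 0.48 with Cyp1a1. Myh7 was most like Myh6, Ihh (0.96), the Myh13 probe (0.95), the retinaldehyde dehydrogenase gene Aldh1a1 (0.94) and Cyp1a1 (0.93), and the genes like the Myh13 probe included Myh6, Myh7, Prdm1 (0.92) and Ihh (0.92).

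Myh3 had other neighbours. Probe A_44_P271442 was most like the fast light chain gene Myl11 (0.98), the fast troponin C gene Tnnc2 (0.97), the cardiac actin gene Actc1 (0.96), the muscle phosphoglycerate mutase gene Pgam2 (0.90) and the skeletal actin gene Acta1 (0.90), and the other Myh3 probe shared the first 4 of these. With each group's mean taken out, the correlation of Myh3 with Myl11 was 0.98. Myh8 was most like Jazf1 (0.89), the slow troponin I gene Tnni1 (0.83), Usp18 (0.83), Tars1 (0.82) and Frzb (0.82). Myh7b was most like Abcd4 (0.97), Lrrc36 (0.96), Arhgap4 (0.95), Gstt2 (0.95) and Ikbke (0.94). Myh1 and Myh13 probe A_64_P137369 were well above background on too few arrays for this.

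Other genes of striated muscle were read from lists that leave out the myosin heavy chains. Of 28 skeletal muscle contractile genes, 22 were measured, 4 higher and 18 lower over both sexes, and 0 passed in limma. Their median difference was -0.36, and their mean level ran from -3.31 to -2.79 in controls and from -3.66 to -3.15 in exposed samples. The highest was female control 1, which was also the highest control for Myh6, Myh7 and Myh3. Values of the smallest p were -0.85 for Myoz1 (standard error 0.24), a protein of the Z disc that was well above background on only 4 control arrays and 1 exposed array, -0.59 for the slow troponin I gene Tnni1 (standard error 0.20), -0.64 for Mybpc2 (standard error 0.24), a myosin-binding protein, and -0.76 for the fast light chain gene Myl1 (standard error 0.30). The largest positive difference of the list was 0.30 for Cacna1s, the calcium channel of skeletal muscle.

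Of 20 heart muscle genes, 12 were measured, 2 higher and 10 lower, with a median of -0.25 and 0 passing in limma. Their mean level ran from -4.35 to -3.65 in controls and from -4.52 to -3.97 in exposed samples. The genes of smallest p were Csrp3 (-0.70, standard error 0.29), Actc1 (-0.29), the repeat protein gene Ankrd1 (0.28) and the sarcolipin gene Sln (-0.66). Of these, Csrp3 was well above background on 6 of 12 arrays and Sln on 7, so their sizes are uncertain. Cardiac troponin T, Tnnt2, differed by -0.45 (standard error 0.39) and the ryanodine receptor gene Ryr2 by 0.14. The atrial and brain natriuretic peptide genes Nppa and Nppb, the heart transcription factor genes Gata4 and Tbx5, and the ventricular Myl2 and Mybpc3 were well above background on 0 arrays. No measured gene of either list differed upward by more than 0.30, beside 1.48 for Myh6 and 1.38 for Myh7. The labels name only the pituitary as tissue, and whether muscle cells were carried along was not tested. Here and above, fewer cells of a type and less RNA per cell cannot be told apart.

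**Figure D4:**
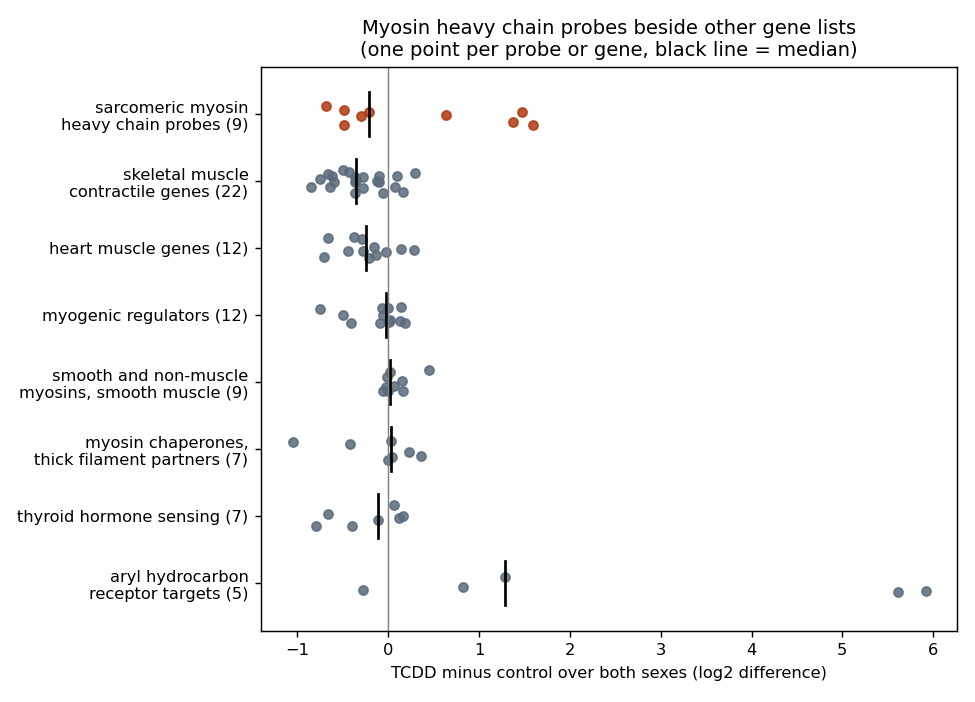
TCDD minus control over both sexes (horizontal axis, log2 difference) for the 9 member probes and for the measured genes of 7 lists, with 1 point per probe or gene and a black line at the median. Members lie between -0.68 and 1.60, and the skeletal and heart muscle genes between -0.85 and 0.30, a range whose low end is the dim probe of Myoz1; the point of Cyp1a1 is plotted at its fitted value although its controls were not well above background.

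Regulators and partners of the family had medians near 0. Of 14 myogenic regulators, 12 were measured, 6 higher and 6 lower, with a median of -0.03 and 0 passing in limma. Myod1, a determinant of muscle identity, differed by -0.75 (standard error 0.33, well above background on 6 of 12 arrays) and Myog, which drives differentiation, by -0.41 (standard error 0.25). Pax3 and Mef2a, the next by smallest p, differed by 0.13 (standard error 0.09) and 0.14 (standard error 0.14). Of 12 chaperones and thick filament partners, 7 were measured, 4 higher and 3 lower, with a median of 0.04 and 0 passing. Hspb7, a small heat shock protein of muscle, had the smallest p and differed by -1.05 (standard error 0.49; -1.10 in males and -1.0 in females), well above background on 5 control arrays and 1 exposed array. The myosin chaperone gene Unc45b differed by -0.42 (standard error 0.28), and its partner Smyd1 was well above background on 0 arrays. Fbxo32 and Unc45a, the next by smallest p, differed by 0.36 (standard error 0.37) and 0.05 (standard error 0.05). Fbxo32 was well above background on 3 control arrays and 6 exposed arrays.

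Relatives outside striated muscle were read from a further list. Of 9 smooth muscle and non-muscle genes, all were measured, 5 higher and 4 lower, with a median of 0.02 and 0 passing in limma. The non-muscle chains Myh9, Myh10 and Myh14 differed by 0.02, 0.16 and -0.01, and the smooth muscle chain Myh11 by -0.05, with standard errors between 0.09 and 0.20. The largest difference of the list was 0.45 for the smooth muscle calponin gene Cnn1 (standard error 0.42; 1.11 in males and -0.21 in females), which was well above background on 0 control arrays and 3 exposed arrays.

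Of 10 genes of thyroid hormone sensing, 7 were measured, 3 higher and 4 lower, with a median of -0.11 and 0 passing in limma. The deiodinase genes Dio2, which activates the hormone, and Dio3, which inactivates it, differed by -0.80 (standard error 0.24) and -0.66 (standard error 0.21). The receptor gene Thra differed by 0.16 (standard error 0.08), and Thrb was well above background on 2 arrays. Of 5 genes of the aryl hydrocarbon receptor response, all were measured, 4 higher and 1 lower, and 3 passed in limma. These were Ahrr, higher by 5.92, Nqo1, by 1.28, and Cyp1a1, at least 25-fold its control level (adjusted p = 5.78e-06, 0.00463 and 1.19e-05 by limma). Cyp1b1 was higher by 0.82 (standard error 0.13; 0.61 in males and 1.03 in females) but did not pass (adjusted p = 0.133 by limma). The receptor gene Ahr differed by -0.28 (standard error 0.17). Cyp1a1 was well above background on 0 of 6 control arrays and on all 6 exposed arrays, so its fold is a bound. That bound sets the exposed mean against the higher of the probe's own signal and the lowest signal well above background on each control array.

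Markers of tissues that a dissected gland could carry differed between exposed and control samples by unequal amounts. The 24 measured ganglion neuron genes were all higher (median 1.70, 0 passing in limma), as were the 9 measured genes of Schwann cells and satellite glia (median 0.75, 0 passing). Of 9 measured cartilage and bone genes 7 were higher (median 0.12, 0 passing), of 5 measured posterior lobe genes 2 were higher (median -0.26, 0 passing), and of 15 measured anterior pituitary genes 14 were lower (median -0.46, 0 passing). The part of these lists in the member values was not tested, beyond the values without the ganglion arrays given above.

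Promoter windows of all 9 genes were taken from RefSeq on GRCr8, each 300 bases around 1 annotated start. On the minus strand Myh6 begins at 32413663 and Myh7 at 32439851, and Myh7b begins at 164537211 on the plus strand. The windows of these genes, that of Myh7b at 164558090-164558389, lie inside the gene and do not cover its outermost 5′ end. Those of Myh6 and Myh7, the neighbours that were higher together, are printed 5′ to 3′ on the gene's strand, with capitals for CANNTG, the E-box that myogenic factors can bind, and CATTCC, the MCAT core of muscle promoters.

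Myh6 window chr15:32411648-32411947, minus strand: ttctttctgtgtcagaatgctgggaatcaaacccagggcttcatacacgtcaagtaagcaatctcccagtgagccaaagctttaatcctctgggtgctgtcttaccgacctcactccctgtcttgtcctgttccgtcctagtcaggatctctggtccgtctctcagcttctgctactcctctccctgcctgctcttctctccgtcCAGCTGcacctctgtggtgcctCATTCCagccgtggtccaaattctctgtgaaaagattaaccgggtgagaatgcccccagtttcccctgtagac
Myh7 window chr15:32438145-32438444, minus strand: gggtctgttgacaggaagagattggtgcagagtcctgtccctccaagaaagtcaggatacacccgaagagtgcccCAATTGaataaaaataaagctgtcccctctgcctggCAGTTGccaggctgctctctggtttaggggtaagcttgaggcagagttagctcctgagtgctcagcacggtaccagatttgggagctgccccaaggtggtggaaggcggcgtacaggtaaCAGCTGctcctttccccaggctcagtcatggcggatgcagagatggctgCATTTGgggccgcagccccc

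Searched on both strands, CANNTG was in the windows of Myh3, Myh4, Myh6, Myh7, Myh7b and Myh13, and in 72.1% of 33469 promoters. CATTCC was in those of Myh1, Myh4 and Myh6, and in 14.2% of all. GCGTG, the core bound by the dioxin-activated receptor, was in 0 of the 9 windows and in 29.7% of all. These letters do not overlap one another in the printed windows. A gene can have other starts, and for Myh6, Myh7 and Myh7b the sequence at the outermost 5′ end was not searched. A match or its absence in 1 window is a description of letters only.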

How the data were processed

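Total RNA of 12 pituitary samples was amplified, labelled with Cy3 and hybridised to 60-mer arrays, per the labels' protocols. The authors deposited scanner files of linear spot intensity, written by Agilent Feature Extraction 10.7.1.1 per the file headers (9.5.1.1 in the submitters' processing notes). The authors' deposited value table holds intensity with a median of 83.5 in each column and ranked spots as the scanner values did (Spearman correlation 1.0); it served as an alternative. A correlation of ranks cannot show the scale of this table, which was taken as linear. Its normalization and centring are not given in the sources used here. Probe positions are on rn4, per the file headers.

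Control spots and outlier spots were left out, the deposited background-corrected intensity was put on the log2 scale, the array's own 75th percentile was taken off, and repeated spots were averaged by probe. Of 30367 probes, 22430 were well above background on at least 3 arrays and had at least 10 values. One model of the 12 arrays (limma 3.58.1, R 4.3.3) had group means, trended moderated variances and Benjamini-Hochberg adjustment at 0.05, after the code was tested on simulated data. RefSeq tables named 18006 probes by accession, 2654 by symbol and 559 by synonym, and 9148 kept the name in the files. A listed gene with an older symbol was read under its current one, and a list reads each gene from its brightest measured probe.

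The members and lists were chosen with earlier results of these data known. Named were all member probes, up to 4 genes of a list by smallest p, and the 5 probes most like each member that was well above background on at least 9 arrays; other listed genes with values were added after those values were seen. Same-numbered male and female controls had positive correlations of the deviations from the group means (0.14, 0.75 and 0.36), so their numbers were taken as pairing them, on this evidence alone. That evidence is weak, because control 2 of each sex, the pair at 0.75, were the control arrays with ganglion signal. Pairing and that signal cannot be told apart here. Same-numbered exposed males and females gave 0.65 for number 1, both with ganglion signal, then -0.11 and -0.40, and were not taken as pairs. Alternatives were the background correction, scaling, filter, slide, replicate number, arrays with ganglion signal and each array left out. The counts of non-overlapping member probes without some arrays were added after seeing the data. One of the probes most like a member is not reported here.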

Additional observations from a re-analysis of the deposited data

Results flagged for a closer look

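The 6 control and the 6 exposed arrays were searched for a sample far from the others, with the 12 member probes giving 24 groups of 6 and chance alone marking about 1 in 20. In 3 of them the gap of 1 array to its nearest neighbour, as a share of the group's range, exceeded Dixon's critical value. Female control 1 was high for Myh6 among the controls, at -0.91 against -1.98 to -1.69 on the others, and for Myh7, at -1.54 against -2.39 to -2.12. This array also had the highest Myh3, Myh8 and skeletal muscle levels of the controls. Female TCDD 3 was high for Myh4 among the exposed arrays, at -7.41 against -8.96 to -8.42, but was not well above background there. The cause was not tested.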

How the results depend on the processing

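Over both sexes 4 probes of all were called, and other settings gave 17 with slide as a block, 2 with the replicate number as a block, 11 with the mean of the ganglion markers as covariate, 0 in limma without the arrays with ganglion signal (623 at an unadjusted p below 0.05), and 4 to 8 with 1 array left out, 8 without male TCDD 1 or male TCDD 3 and 7 without female control 1. Of the members 2, Myh6 and Myh7, were called with the covariate, without male TCDD 1 and without female control 1. For both genes male TCDD 1 was the lowest exposed array and female control 1 the highest control. Their low p-values in this comparison drew attention to the family, so these calls are a description with no test. In males 2 were called: normexp correction, probes well above background on all 12 arrays, or males alone each gave 1, slide as a block 29, slide 1 alone 257 (both on male TCDD 1), the covariate 4, no ganglion arrays 0 (1062 unadjusted), and 1 array left out 2 to 3. In females 2 were called: normexp or all 12 arrays gave 1, slide as a block 5, slide 3 alone 0 (624 unadjusted), no ganglion arrays 0 (578 unadjusted), and 1 array left out 2 to 3. For the difference between the sexes slide as a block gave 10 in place of 0. Between control males and females 2 were called, and normexp, all 12 arrays and the replicate block gave 1 each, no ganglion arrays 0 (937 unadjusted), and 1 array left out 1 to 2, with 1 without male control 2 or 3. No member was called in these last 4 comparisons under any alternative. The cause of these shifts was not tested.

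Same-numbered control and exposed samples did not deviate together in females (correlations of -0.48, -0.70 and -0.37). In males the correlations were -0.23, 0.35 and 0.44, and numbers were not taken as pairing exposure groups. The differences over both sexes ran from 1.32 to 1.78 for Myh6, from 1.17 to 1.67 for Myh7 and from 0.96 to 1.98 for Myh13 probe A_64_P120327 over 12 alternatives, and from 1.36 to 1.64, 1.28 to 1.52 and 1.47 to 1.78 with 1 array left out. Dim probes (Myh1, Myh13 probe A_64_P137369) are limited by signal over background.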
